A study of Mus musculus with 6 samples.

Results

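Siglece, Siglecg, Siglech, Cd22, Cd33, Sirpa, Pirb, Lilrb4a and Cd47 were examined together, because 8 of them encode cell surface receptors of myeloid cells and B cells that set a threshold for activation, and Cd47 encodes the ligand that SIRPα reads on neighboring cells. They were taken by name and are 9 of the 32287 features in the gene matrix. All 9 had enough UMIs (unique molecular identifiers, one per captured transcript) to be among the 11724 genes tested. The cells were sorted as CD11b+ and tdTomato+ (TOM+) from the inguinal lymph nodes of Cd169Cre/+.Tdtomatofl/fl (CD169Tom) mice on a C57BL/6J background, of both sexes in the study. All 4 mice carried the same alleles, so 1 Siglec1 allele was taken by Cre in every mouse, and the reporter marks any cell whose lineage has turned Siglec1 on, not macrophages alone. 2 mice were unimmunized, and 2 had been immunized with hen egg lysozyme (HEL), as the series describes it, and were taken on day 9. The study's methods describe HEL joined to an ovalbumin peptide (HEL-OVA) in Sigma Adjuvant System, for mice that had received transferred cells, and do not say whether that applied to these mice. Hashtag antibodies told the mice apart within 2 droplet captures, each of which held cells of all 4, so the replicates were mice and not captures.

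Most of these receptors carry an immunoreceptor tyrosine-based inhibitory motif (ITIM) in the cytoplasmic tail. When it is phosphorylated by Src family kinases such as Lyn, the tail binds the phosphatases SHP-1 (Ptpn6), SHP-2 (Ptpn11) or SHIP-1 (Inpp5d), which oppose kinase signals from activating receptors. Siglecs bind sialic acids on glycans of the same or of other cells. CD22 and Siglec-G do so on B cells and restrain the B cell receptor, Siglec-E and CD33 do so on myeloid cells, and Siglec-H, best known from plasmacytoid dendritic cells, has no ITIM and signals through the adaptor DAP12 (Tyrobp). SIRPα restrains phagocytosis when it meets CD47, PIR-B (Pirb) binds MHC class I, and gp49B (Lilrb4a) is an ITIM receptor of mast cells and myeloid cells.

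Proximal promoters are shown for 4 receptors, to set a pair from myeloid cells (Pirb and Siglece) beside the B cell pair (Cd22 and Siglecg). RefSeq promoter windows (250 bases before to 50 after a start site, GRCm38.p6) were at hand for 7 of the 9 genes, with none for Sirpa or Lilrb4a. Siglecg and Cd47 each had another, overlapping window. The windows of Cd22, Cd33 and Cd47 lie within the gene spans given below, downstream of their outermost start. Capitals mark matches, on either strand, to 4 motifs: GAGGAA, the core that the myeloid and B cell factor PU.1 prefers; GGAAGT, a common Ets family core, which overlaps GAGGAA where both occur together; ATGCAAAT, the octamer; and the palindrome that the B cell factor EBF1 recognizes.

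Pirb, chr7:3720333-3720632, minus strand: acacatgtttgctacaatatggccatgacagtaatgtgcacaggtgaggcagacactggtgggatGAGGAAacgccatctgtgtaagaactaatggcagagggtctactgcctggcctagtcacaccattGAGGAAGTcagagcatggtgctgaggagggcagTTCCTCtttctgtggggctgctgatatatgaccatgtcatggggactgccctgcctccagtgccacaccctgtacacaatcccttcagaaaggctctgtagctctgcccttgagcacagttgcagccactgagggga

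Siglece, chr7:43660112-43660411, minus strand: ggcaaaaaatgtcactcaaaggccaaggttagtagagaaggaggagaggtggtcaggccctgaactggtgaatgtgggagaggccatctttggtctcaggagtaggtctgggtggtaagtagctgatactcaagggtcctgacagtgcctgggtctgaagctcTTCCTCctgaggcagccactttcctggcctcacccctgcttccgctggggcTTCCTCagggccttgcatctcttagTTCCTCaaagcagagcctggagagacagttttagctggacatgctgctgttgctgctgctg

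Cd22, chr7:30878979-30879278, minus strand: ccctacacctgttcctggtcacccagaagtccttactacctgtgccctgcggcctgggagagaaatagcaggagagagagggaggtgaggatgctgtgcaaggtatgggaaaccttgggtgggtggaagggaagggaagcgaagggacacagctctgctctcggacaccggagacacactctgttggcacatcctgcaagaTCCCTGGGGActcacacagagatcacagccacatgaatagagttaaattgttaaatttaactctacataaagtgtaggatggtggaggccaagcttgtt

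Siglecg, chr7:43407989-43408288, plus strand: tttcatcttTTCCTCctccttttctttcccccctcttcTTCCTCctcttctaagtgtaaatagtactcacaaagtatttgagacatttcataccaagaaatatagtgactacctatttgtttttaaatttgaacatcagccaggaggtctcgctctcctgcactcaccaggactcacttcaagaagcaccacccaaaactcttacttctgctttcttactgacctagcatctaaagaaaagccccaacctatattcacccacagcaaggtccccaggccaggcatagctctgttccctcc

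GAGGAA occurred 3 times in the Pirb window, 3 times in the Siglece window and 2 times in the Siglecg window shown. GAGGAA occurred 1 time each in the Cd33 and Siglech windows, and not in the other Siglecg window or those of Cd22 and Cd47. It was found in 28.3% of all 32851 mouse promoter windows. GGAAGT occurred 1 time each in Pirb, Cd33 and Siglech and in 23.8% of all windows. The EBF1 palindrome occurred in the Cd22 window and in 0.904% of all windows, and the octamer, found in 1.74% of all windows, occurred in none of the windows of these genes. These are matches of letters, not binding sites. On the mm10 assembly, Cd22 (chr7:30865402-30880342), Cd33 (chr7:43524216-43544428), Siglece (chr7:43651070-43660161), Siglecg (chr7:43408204-43418358), Siglech (chr7:55768178-55778925) and Pirb (chr7:3711409-3720391) lie on chromosome 7, Sirpa on chromosome 2 (chr2:129592835-129632228), Lilrb4a on chromosome 10 (chr10:51490956-51496611) and Cd47 on chromosome 16 (chr16:49800533-49915010). Pirb, Lilrb4a and Sirpa have close relatives (Pira2, Lilr4b and the Sirpb1 genes), and reads from stretches they share could have been assigned to either, so values for these genes are uncertain to that extent.

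After filtering, 12139 cells were kept, with 2828 and 537 from the unimmunized mice and 4052 and 4722 from the immunized mice, and 3817845 to 61983132 UMIs per mouse. Cells were gated by 8 marker genes per cell type, none of them among the 9 genes. A gate took 8548 cells, and a name ending in "-like" means only that a cell had more markers of that type than of any other. Of 8 markers, 4 to 8 were highest in their own type. The gates were not pure, since 6613 gated cells also had at least 3 markers of another type. B, T and natural killer (NK) cell-like cells were found although the sort was for CD11b, whose gene Itgam had a mean of 131 CPM in NK cell-like and 9.42 to 13.6 CPM in B and T cell-like cells, against 352 CPM in neutrophil-like cells. UMIs were summed per mouse and type wherever a mouse had at least 10 cells, which gave 48 libraries over 13 types, and a level is given as CPM, the UMIs of a gene scaled to the UMIs of all genes in the library. Medullary sinus macrophage-like and neutrophil-like cells gave libraries from only 1 mouse of each condition. In tests that use these 2 types, their spread between mice was therefore not measured but taken from the other groups. The type 1 dendritic cell-like library of immunized mouse 2 stood apart, and so did its B cell-like library, as described with the results they touch.

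**Figure D1:**
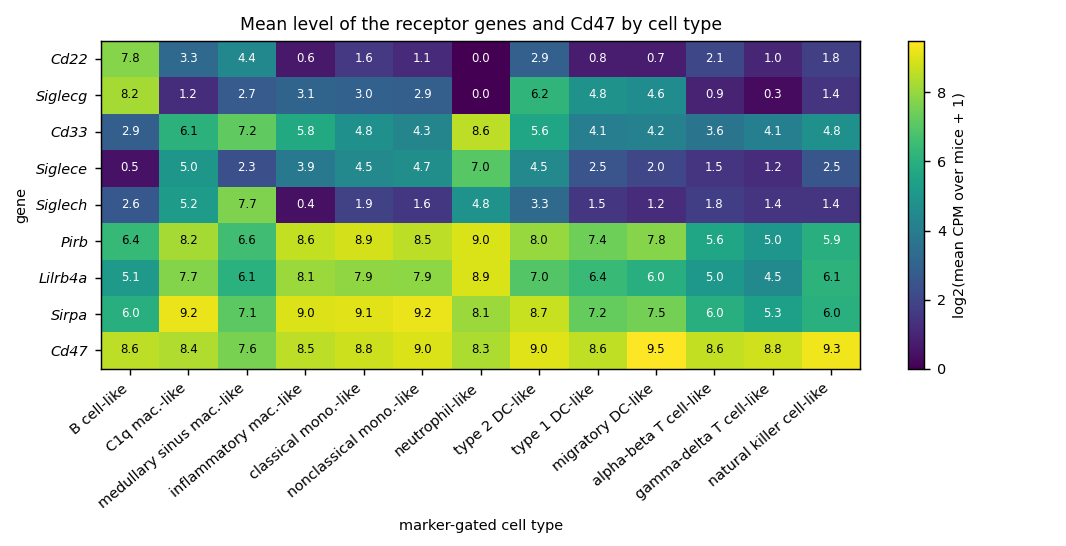
Mean level of each gene (rows) in each marker-gated cell type (columns), as log2 of the mean CPM over mice plus 1, in color and as a number. Cd22 and Siglecg were highest in B cell-like cells. Sirpa, Pirb and Lilrb4a were high in monocyte-like and most macrophage-like cells, but not in medullary sinus macrophage-like cells. Cd47 was present in every type and lowest in medullary sinus macrophage-like cells.

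Cd22 and Siglecg, the Siglecs of the B cell receptor complex, were highest in B cell-like cells. Cd22 stood at 275 and 139 CPM in the B cell-like libraries of the unimmunized mice and at 256 and 207 CPM in those of the immunized mice (mean 219 ± 60.5, SD, n = 4). No other library reached these levels, the next type being medullary sinus macrophage-like cells at 16.8 and 23.9 CPM, whose 8 B cell markers summed to 117 and 23.9 CPM. Siglecg stood at 371 and 453 CPM in the unimmunized and at 194 and 166 CPM in the immunized B cell-like libraries (mean 296 ± 138). Unlike Cd22, it had a clear level in dendritic cells, with 78.1, 70.2, 103 and 39.7 CPM in type 2 dendritic cell-like libraries. Type 1 and migratory dendritic cell-like cells followed at means of 27.4 ± 8.63 and 23.6 ± 11.7 CPM, and their ranges overlapped. In neutrophil-like libraries, neither gene had a UMI among 142377, which allows up to 21.1 CPM.

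Cd22 had a log2 fold change of 7.29 ± 0.27 (SE) in B cell-like cells against the mean of all other types (edgeR quasi-likelihood test with Benjamini-Hochberg adjustment over all genes, adjusted p = 9.89e-22). Siglecg had 6.38 ± 0.28 (adjusted p = 2.14e-19). Among the receptor genes of myeloid cells, Cd33 (−2.53 ± 0.67), Lilrb4a (−2.0 ± 0.39), Sirpa (−1.96 ± 0.30) and Pirb (−1.26 ± 0.28) were lower in B cell-like cells (adjusted p from 2.81e-06 to 0.0042). In all, 6 of the 9 genes were called in this comparison, in which 24.1% of all tested genes were called. Cd47 did not pass (−0.15, adjusted p = 0.39), nor did Siglech. Siglece had no UMI in several groups, so that edgeR gave no usable error, and its level was 0 in 3 of 4 B cell-like libraries and 1.47 CPM in the other. With the mouse as a block it was called lower (−2.21, adjusted p = 0.035).

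The B cell-like library of immunized mouse 2 carried 144 CPM of Sirpa, 182 of Pirb and 84.7 of Lilrb4a, against at most 52.2, 55.5 and 29.4 CPM in the other 3 libraries. Its 8 inflammatory macrophage markers summed to 1226 CPM against 34.8 to 117 CPM in the others, and the part of other cells in it was not tested. Without this mouse, the values in B cell-like cells were −2.22 for Sirpa, −1.61 for Pirb and −2.17 for Lilrb4a, and all 3 were still called. Without unimmunized mouse 1, Pirb was no longer called (−1.63, adjusted p = 0.052). The Cd33 call was lost in capture 2 alone (−2.07, adjusted p = 0.097) and when cells were grouped by Leiden clusters named by the same markers (−0.54, adjusted p = 0.27), and that of Lilrb4a was lost without cells that had 3 markers of another type (−2.41, adjusted p = 1).

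Other genes of these pathways were taken as lists. Of 8 genes in the list of ITAM adaptors and kinases, 5 were higher in B cell-like cells and 3 were lower. The median log2 fold change was 1.77, against 0.41 over all genes. The ITAM is the activating counterpart of the ITIM, and not every gene of this list carries or reads it. Cd79a (10.54 ± 0.14) and Cd79b (6.44 ± 0.15), the signaling chains of the B cell receptor, were also markers of the gate, and Blnk, its linker, had 6.88 ± 0.31. Of 8 ITIM signaling proteins, 3 were higher and 2 lower, with the inhibitory kinase Csk at 1.04 ± 0.13 and the Src family kinase Fgr at −1.84 ± 0.31. Of 18 other tested ITIM-bearing or paired receptors, 3 were higher and 5 lower (median −1.12), among them Pecam1 (3.98 ± 0.32) and the B cell receptor inhibitor Cd72 (3.86 ± 0.22) on the higher side and Cd300a (−2.43 ± 0.51) on the lower. Of 15 tested genes for sialic acid synthesis and transfer, 4 were higher and 1 lower. Cmah, the enzyme that makes N-glycolylneuraminic acid, the form that mouse CD22 prefers, had 3.92 ± 0.34. The sialyltransferases St3gal6 and St3gal4 had 2.03 ± 0.28 and −2.12 ± 0.38.

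**Figure D2:**
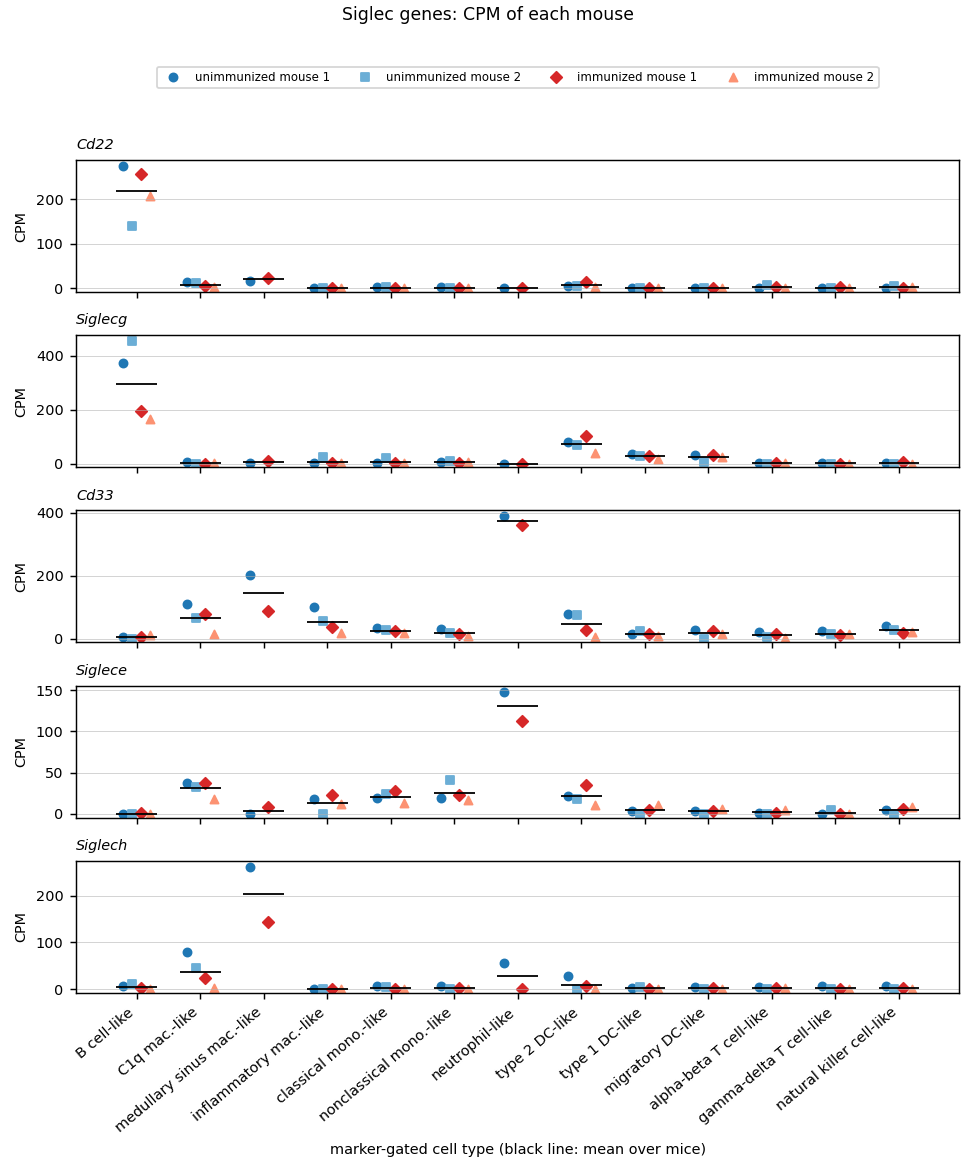
CPM (y axis, linear, 1 panel per gene) of the 5 Siglec genes in each marker-gated cell type (x axis), with 1 point per mouse and a black line for the mean over mice. Siglech lay at 262 and 143 CPM in medullary sinus macrophage-like libraries and Cd33 at 389 and 362 CPM in neutrophil-like libraries, each above every other library.

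The myeloid Siglecs did not share 1 pattern. Cd33 and Siglece were highest in neutrophil-like cells, with 389 and 362 CPM of Cd33 and 148 and 113 CPM of Siglece in the libraries of unimmunized mouse 1 and immunized mouse 1. Siglece was next at 36.9, 33.1, 37.2 and 17.8 CPM in C1q macrophage-like cells (a gate led by the complement genes C1qa, C1qb and C1qc), and then its ranges overlapped through nonclassical and classical monocyte-like, type 2 dendritic cell-like and inflammatory macrophage-like cells. Cd33 was next at 201 and 87.6 CPM in medullary sinus macrophage-like cells, then at 111, 66.2, 77.1 and 15.8 CPM in C1q macrophage-like and 99.7, 56.6, 36.1 and 19.3 CPM in inflammatory macrophage-like cells. Monocyte-like cells carried less of it, with means of 26.1 ± 7.35 CPM in the classical and 19.1 ± 9.11 CPM in the nonclassical gate.

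Among the types that gave a library, Siglech was highest not in dendritic cells but in medullary sinus macrophage-like cells, with 262 CPM in unimmunized and 143 CPM in immunized mouse 1. This gate was led by Ccl8 and the scavenger receptor and C-type lectin genes Marco and Cd209b, and its 8 own markers summed to 8003 and 6653 CPM against 231 and 104 CPM for the 8 plasmacytoid dendritic cell markers. C1q macrophage-like cells followed, and in inflammatory macrophage-like and both monocyte-like gates the mean was at most 2.71 CPM. The plasmacytoid dendritic cell-like gate held only 13 cells and gave no library. In these 13 cells, all 20 Siglech UMIs came from 1 cell of unimmunized mouse 1, whose 5 such cells thus stood at 394 CPM, and the other cells had none. Of the gate's markers, all 4 Klk1 UMIs and 10 of 12 Cox6a2 UMIs also lay in 1 cell of that mouse. Tcf4 was seen in 13 cells, Rnase6 in 11 and Spib in 10. Whether the other cells were plasmacytoid dendritic cells was not tested, so these cells do not give the level of Siglech in that type. Sirpa was seen in 13 of the 13 cells and Cd22 and Siglece in none.

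Cd33 was 15.2 times higher in neutrophil-like than in monocyte-like cells (log2 fold change 3.93 ± 0.56, adjusted p = 2.58e-06, edgeR), and Siglece was 5.41 times higher (2.44 ± 0.66, adjusted p = 0.011). Sirpa and Cd47 were called lower at −1.22 ± 0.38 and −0.73 ± 0.20, so that 4 of 9 genes were called beside 11.1% of all genes. The 8 neutrophil markers alone summed to 160987 and 288202 CPM in these libraries, and the median log2 fold change of all genes was −2.46. With DESeq2's size factors that median was −1.98, the higher share of the calls over all genes went from 29.6% to 61.9%, and Sirpa (−0.70) and Cd47 (−0.22) were no longer called. Both lay above the median of all genes under either scaling. That median also holds genes with few or no UMIs in the neutrophil-like libraries (53998 and 88379 UMIs), so a place above it does not show a higher level. Sirpa also lost its call when mouse was blocked (−1.11, adjusted p = 0.069) and without unimmunized mouse 1, unimmunized mouse 2 or immunized mouse 1 (−1.10, −1.19 and −1.13), Cd47 without unimmunized mouse 1 or immunized mouse 1 (−0.57 and −0.51), and Siglece without unimmunized mouse 1 (2.33, adjusted p = 0.24). Lilrb4a had 0.91 ± 0.37 (adjusted p = 0.12) and was called higher when mouse was blocked (1.00, adjusted p = 0.044) and by DESeq2 (1.42, adjusted p = 0.0087). Of the other genes, 2 of 18 tested ITIM-bearing or paired receptors were higher, Cd300lf at 2.56 ± 0.44 and Pilra at 2.12 ± 0.45, and Fcgr2b, the inhibitory Fc receptor, was lower at −2.08 ± 0.50. The activating adaptor Hcst (1.80 ± 0.34) and Cmah (4.88 ± 1.06) were higher, and no ITIM signaling protein passed the test. The list of CD47 partners and maturation had 6 tested genes, not all of which encode partners of CD47. Of these, Lrp1 (−6.52 ± 1.62) and Calr (−1.39 ± 0.31) were lower. Fcgr2b and Calr lay above the median of all genes under either scaling and were not called with size factors (−1.56 and −0.87).

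**Figure D3:**
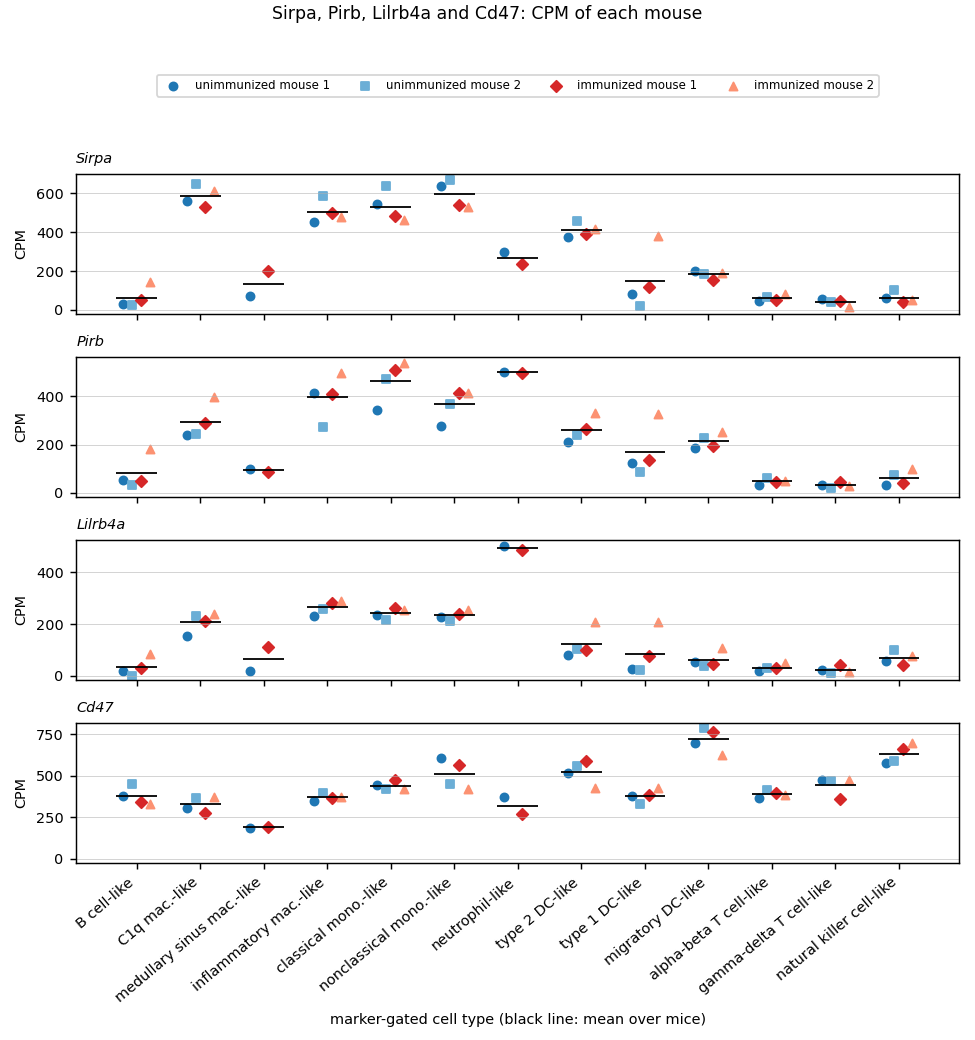
CPM (y axis, linear, 1 panel per gene) of Sirpa, Pirb, Lilrb4a and Cd47 in each marker-gated cell type (x axis), with 1 point per mouse and a black line for the mean over mice. Sirpa lay between 450 and 666 CPM in all libraries of the 4 highest types and at or below 144 CPM in all B, T and NK cell-like libraries.

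Sirpa, Pirb and Lilrb4a were high in monocyte-like and most macrophage-like cells and low in lymphocytes. Sirpa stood at 636, 666, 542 and 532 CPM in nonclassical monocyte-like libraries (unimmunized mice 1 and 2, then immunized mice 1 and 2). It stood at 560, 646, 529 and 612 CPM in C1q macrophage-like, 542, 636, 484 and 462 CPM in classical monocyte-like and 450, 588, 496 and 480 CPM in inflammatory macrophage-like libraries. The ranges of these 4 types overlapped. Type 2 dendritic cell-like cells, the subset for which SIRPα is a standard surface marker, had 375, 456, 391 and 414 CPM, and neutrophil-like cells had 296 and 238 CPM, with no overlap between them. Migratory dendritic cell-like cells followed at 183 ± 19.7 CPM. Medullary sinus macrophage-like cells had 70.4 and 199 CPM, and the 4 lymphocyte gates had means from 39.6 to 64.0 CPM.

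Pirb was at 500 and 498 CPM in neutrophil-like libraries, and at 343, 471, 509 and 537 CPM in classical monocyte-like libraries, whose range included both. It then declined, with overlapping neighbors, through inflammatory macrophage-like (397 ± 92.7), nonclassical monocyte-like (368 ± 64.4), C1q macrophage-like (293 ± 73.7) and type 2 dendritic cell-like cells (262 ± 50.7) to migratory dendritic cell-like cells (215 ± 30.1). Lilrb4a was at 500 and 487 CPM in neutrophil-like libraries, above every other library. Inflammatory macrophage-like (267 ± 26.1), classical monocyte-like (242 ± 21.4), nonclassical monocyte-like (234 ± 17.8) and C1q macrophage-like cells (209 ± 38.0) came next and overlapped in turn. It was much lower in migratory dendritic cell-like cells (61.0 ± 32.8), while type 1 (82.9 ± 86.6) and type 2 dendritic cell-like cells (124 ± 57.1) overlapped. Both were lowest in gamma-delta T cell-like cells, at 30.8 ± 10.1 CPM for Pirb and 22.4 ± 15.1 CPM for Lilrb4a. Pira2, the activating relative of Pirb, ran from 8.72 CPM in gamma-delta T cell-like to 101 CPM in neutrophil-like cells, and Lilr4b, the neighbor of Lilrb4a, from 1.28 to 236 CPM in the same gates.

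In T and NK cell-like cells against the myeloid types, Pirb (−2.85 ± 0.18), Sirpa (−2.70 ± 0.17), Lilrb4a (−2.20 ± 0.21) and Cd33 (−1.52 ± 0.27) were lower, with adjusted p-values from 6.34e-16 to 2.06e-05 in edgeR's quasi-likelihood test. That was 4 of 9 genes beside 42.2% of all genes. Cd47 had 0.07 and did not pass. Siglecg, Siglece and Siglech had groups without a UMI and gave no usable error in edgeR, and with the mouse as a block Siglecg (−2.35, adjusted p = 4.08e-05) and Siglece (−2.68, adjusted p = 3.13e-06) were called lower. Src family kinases, which phosphorylate ITIMs, were lower as well, with Fgr at −2.99 ± 0.19 and Lyn at −2.83 ± 0.12, and 4 of 8 ITIM signaling proteins were lower and 1 higher. Of 18 tested ITIM-bearing or paired receptors, 10 were lower and 2 higher (median −2.60, against 0.53 over all genes), led by Cd300a (−3.35 ± 0.28), Clec4a2 (−2.97 ± 0.25) and Clec12a (−2.96 ± 0.20). Of the 8 genes in the ITAM list, the adaptor Hcst was higher (3.10 ± 0.10) and 3 were lower, among them Syk (−2.41 ± 0.16) and Tyrobp (−1.98 ± 0.13). Of 15 sialic acid genes, 4 were higher and 2 lower, with St3gal6 at 3.99 ± 0.16, Gne at 1.77 ± 0.69 and Slc35a1 at 1.19 ± 0.29. Of 6 genes in the CD47 list, the integrin gene Itgb3 was higher (5.17 ± 0.35) and Calr lower (−0.34 ± 0.09). The Cd33 call was lost in Leiden clusters (−0.37, adjusted p = 0.11) and capture 2 alone (−0.60, adjusted p = 0.18), and that of Pirb without cells that had 3 markers of another type (−2.33, adjusted p = 1).

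Shares of cells with a UMI were highest in the same types as CPM, although types further down could change places. Each cell was thinned to 1000 UMIs, since the median depth ran from 1798 UMIs in medullary sinus macrophage-like to 16023 UMIs in type 1 dendritic cell-like cells, and 6 cells below that depth were left out. Sirpa was then seen in 43.6 ± 2.74% of nonclassical monocyte-like cells (median 8820.5 UMIs; unthinned 95.2%) and in 3.01% of gamma-delta T cell-like cells (median 6313 UMIs; unthinned 17.5%), which should lack it. Pirb was seen in 41.4 ± 2.19% of neutrophil-like cells (median 3040 UMIs; unthinned 75.3%) and 2.73% of gamma-delta T cell-like cells (unthinned 16%). Cd22 was seen in 22.4 ± 5.24% of B cell-like cells (median 4467 UMIs; unthinned 66.6%) and in 0.0602% of type 1 dendritic cell-like cells (unthinned 1.10%). Cd33 reached 35.5% of neutrophil-like cells against 0.443% of B cell-like cells (unthinned 77.8% and 4.45%), and Siglech 18.7% of medullary sinus macrophage-like cells against 0.0261% of inflammatory macrophage-like cells (unthinned 31.1% and 0.324%). For all 9 genes the type with the highest thinned share was the type with the highest CPM, and without thinning this held for 5.

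Cd47, whose product is found on most cells, was at 188 CPM or more in every library. It was highest in migratory dendritic cell-like cells, with 696, 789, 765 and 628 CPM, followed by NK cell-like cells with 578, 592, 664 and 695 CPM, and the ranges overlapped. Type 2 dendritic cell-like (522 ± 69.0), nonclassical monocyte-like (512 ± 89.5), gamma-delta T cell-like (445 ± 57.2) and classical monocyte-like cells (441 ± 26.1) came next. It was lowest in medullary sinus macrophage-like cells, at 188 and 191 CPM, below every other library. Among the gates sampled in all 4 mice, C1q (329 ± 46.2) and inflammatory macrophage-like cells (372 ± 19.8) had the lowest means, but B cell-like (377 ± 54.9) and type 1 dendritic cell-like cells (380 ± 37.9) overlapped the latter.

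Cd47 was higher in the 3 dendritic cell-like types than in the 3 macrophage-like types (0.99 ± 0.09, adjusted p = 3.61e-10, edgeR). In the same comparison Siglecg was 13.6 times higher (3.76 ± 0.40, adjusted p = 7.96e-09), and Cd33 (−1.59 ± 0.31), Lilrb4a (−0.74 ± 0.26) and Sirpa (−0.51 ± 0.18) were lower, so that 5 of 9 were called beside 25.7% of all genes. Cd22 and Siglech gave no usable error and were called lower with the mouse as a block, at −1.31 and −2.39. The Sirpa and Lilrb4a calls were lost without unimmunized mouse 2 (−0.41 and −0.67) or immunized mouse 1 (−0.16 and −0.10), and that of Cd33 without unimmunized mouse 1 (−2.64, adjusted p = 0.11). Without cells that had 3 markers of another type, Lilrb4a turned to 0.44 and Cd33 was not called (−1.16), and neither Sirpa nor Lilrb4a was called in either capture alone or with at least 20 cells per library, nor Cd33 in capture 2 (−0.91). When the medullary sinus macrophage-like libraries were left out, an alternative chosen after the data were seen, Sirpa had −1.31 and Lilrb4a −1.56, and both were called. Among the phosphatases, Ptpn6 was lower in dendritic cell-like types (−0.64 ± 0.11), as was Lyn (−0.39 ± 0.12), which made 2 of 8 ITIM signaling proteins. Of 8 genes in the ITAM list, Blnk was higher (2.82 ± 1.02) and 4 were lower, among them Fcer1g (−1.06 ± 0.21) and Syk (−0.87 ± 0.15). Of 18 tested ITIM-bearing or paired receptors, Cd200r1 was higher (3.08 ± 1.01) and 3 were lower, among them Lair1 (−1.59 ± 0.32) and Clec4a2 (−1.53 ± 0.27). Of 15 sialic acid genes, 5 were higher and 3 lower, with Gne, the enzyme that starts sialic acid synthesis, at 3.47 ± 0.80, Cmah at −2.37 ± 0.68 and St3gal6 at −1.67 ± 0.59. Of the genes in the CD47 list, Lrp1 was lower (−1.17 ± 0.33).

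Macrophage-like types had more Cd33 (1.69 ± 0.31, adjusted p = 0.00012) and less Cd47 (−0.81 ± 0.10, adjusted p = 2.01e-07) than monocyte-like types. Pirb (−0.94 ± 0.20), Lilrb4a (−0.86 ± 0.23) and Sirpa (−0.84 ± 0.18) were called lower too, and 5 of 9 genes were called beside 20.3% of all genes. These 3 calls rested on the medullary sinus macrophage-like libraries. Without them, as chosen after the data were seen, Sirpa had −0.08, Pirb −0.29 and Lilrb4a −0.06 and none of the 3 was called, while Cd33 (1.30) and Cd47 (−0.48) still were. Without unimmunized mouse 1, Cd33 (1.48, adjusted p = 0.16), Sirpa (−0.57) and Lilrb4a (−0.34) were not called. Cd22 and Siglech gave no usable error in edgeR and were called higher in macrophage-like types with the mouse as a block (2.17 and 3.15). Of the ITIM signaling proteins, 7 of 8 were lower in macrophage-like types (median −0.61, against −0.31 over all genes), among them Sh2d1b1 at −3.78 ± 0.61 and Fgr at −1.55 ± 0.18. The adaptors Fcer1g (−0.68 ± 0.24) and Tyrobp (−0.58 ± 0.17) were lower. Of 18 tested ITIM-bearing or paired receptors, 9 were lower and none higher, led by Ceacam1 (−4.61 ± 0.58), Lilra5 (−3.70 ± 0.82) and Sirpb1a (−2.75 ± 0.39). Of 15 sialic acid genes, 2 were higher and 5 lower, with Cmah at 2.35 ± 0.65, St6galnac4 at 1.19 ± 0.18 and St3gal2 at −2.81 ± 0.97. Of 6 genes in the CD47 list, 3 were lower, Itgb3 (−3.17 ± 0.98), Itgav (−1.74 ± 0.32) and the phagocytic receptor Lrp1 (−1.35 ± 0.22). Without the medullary sinus macrophage-like libraries, 4 of 8 ITIM signaling proteins were lower (median −0.39, against −0.06 over all genes). So were 4 of 18 ITIM-bearing or paired receptors, 2 of 15 sialic acid genes and 3 genes of the CD47 list, in which Calr was higher (0.44). Fcer1g (−0.40), Tyrobp (−0.42), Lilra5 (−0.95), Cmah (0.97) and St6galnac4 (0.48) were then not called.

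Within macrophages, C1q macrophage-like cells had more Sirpa (2.43 ± 0.39, adjusted p = 5.53e-05), Lilrb4a (2.24 ± 0.52), Pirb (1.74 ± 0.43) and Cd47 (0.92 ± 0.20) and less Siglech (−2.71 ± 0.67, adjusted p = 0.0067) than medullary sinus macrophage-like cells. That was 5 of 9 genes, beside 10.4% of all genes, and Siglece had 5.47 ± 1.88 (adjusted p = 0.058). All 5 calls were lost without unimmunized mouse 1, which gave 149 of the 206 medullary sinus macrophage-like cells, although the directions stayed (Sirpa 1.8, Pirb 1.86, Lilrb4a 1.18, Cd47 0.99 and Siglech −2.51). The call of Siglech was also lost without unimmunized mouse 2 (−2.56, adjusted p = 0.062), by DESeq2 (−2.85, adjusted p = 0.21) and without cells that had 3 markers of another type (−2.13, adjusted p = 0.076), where that of Cd47 was lost too (1.59), and that of Lilrb4a was lost in capture 1 alone (2.06). With size factors the median of all genes moved by −0.15, from 0.48 to 0.33. Of 18 tested ITIM-bearing or paired receptors, 8 were higher in C1q macrophage-like cells (median 3.21, against 0.48 over all genes), among them Sirpb1b (5.87 ± 1.44), Milr1 (5.40 ± 1.62) and Sirpb1a (5.34 ± 1.43). Of 8 ITIM signaling proteins, 4 were higher, among them Sh2d1b1 (8.07 ± 2.35), Fgr (2.30 ± 0.43) and Csk (1.26 ± 0.32). Of the ITAM genes, Cd79a was lower (−6.18 ± 1.39), which is a B cell gene. Of 15 sialic acid genes, St8sia4 was higher (2.07 ± 0.52) and Cmah (−3.19 ± 0.67) and St6galnac4 (−1.52 ± 0.30) lower. In the CD47 list, Lrp1 (1.74 ± 0.56) and Calr (1.68 ± 0.25) were higher.

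Classical and nonclassical monocyte-like cells differed in none of the 9 genes by edgeR, where 1.7% of all genes were called, and 0 of the 9 reached an unadjusted p under 0.05. DESeq2 and the fit with the mouse as a block also called 0. By contrast, 5 of 18 tested ITIM-bearing or paired receptors were lower in classical cells, among them Lilra5 (−2.50 ± 0.34), Ceacam1 (−2.07 ± 0.29) and Pecam1 (−1.57 ± 0.32). Sh2d1b1 (−1.36 ± 0.26) and Itgav (−1.20 ± 0.25) were lower too, and no ITAM or sialic acid gene passed. The list of 4 other Siglecs, of which 2 were tested, had no call in any comparison. Siglec1, the gene of CD169 itself, was low throughout. Its highest means were 26.0 ± 5.11 CPM in classical monocyte-like and 25.4 ± 6.57 CPM in C1q macrophage-like cells, and their ranges overlapped. The medullary sinus macrophage-like libraries had 0 and 40.2 CPM.

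Immunization was compared within the 11 types that had a library from all 4 mice. Over 11 types and 9 genes, 2 gene and type pairs were called by edgeR, Sirpa and Lilrb4a in type 1 dendritic cell-like cells, beside 0.34% of all gene and type pairs and 1.36% of all genes in that type. Sirpa stood at 82.7 and 21.0 CPM in the type 1 dendritic cell-like libraries of the unimmunized mice and at 120 and 378 CPM in those of the immunized mice. Lilrb4a stood at 27.3 and 21.0 against 76.0 and 208 CPM. The log2 fold changes were 1.98 ± 0.38 and 2.45 ± 0.48, both with an adjusted p of 0.0049, and DESeq2 and the fit with the mouse as a block called both. Pirb, at 126 and 87.3 against 134 and 328 CPM, had 1.03 ± 0.38 (adjusted p = 0.20). All 3 genes were higher in both immunized than in both unimmunized mice, and highest in immunized mouse 2.

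The type 1 dendritic cell-like library of immunized mouse 2 stood apart in its markers. Its 8 own markers summed to 1221 CPM, against 3784, 3856 and 3193 CPM in the other 3 libraries, and its 8 C1q macrophage markers summed to 2620 CPM, against 194, 112 and 670 CPM. Classical monocyte markers summed to 2767 CPM against 880 to 1352 CPM, and the part of such cells in the result was not tested. Without immunized mouse 2, Sirpa had 0.95 ± 0.35 (adjusted p = 0.57) and Lilrb4a 1.59 ± 0.39 (adjusted p = 0.076). Without unimmunized mouse 1, Sirpa had 3.51 and Lilrb4a 2.71, without unimmunized mouse 2 they had 1.62 and 2.41, and none of these was called (adjusted p from 0.12 to 0.35). In Leiden clusters, Sirpa had −0.37 and Lilrb4a 0.19. Without cells that had 3 markers of another type, neither was called (2.05 and 3.44, adjusted p = 0.66 and 0.52) and Pirb turned to −0.33, and Sirpa was not called with HTODemux hashtags (1.51) or in capture 2 alone (1.74). Of 18 tested ITIM-bearing or paired receptors, 10 were higher in the same contrast, led by Sirpb1c (3.54 ± 0.68), Sirpb1a (2.95 ± 0.58) and Sirpb1b (2.92 ± 0.56). Ptpn6 (1.30 ± 0.24) and Fgr (1.67 ± 0.37), 2 of 8 ITIM signaling proteins, and the ITAM adaptor Fcer1g (2.14 ± 0.51) were higher as well.

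**Figure D4:**
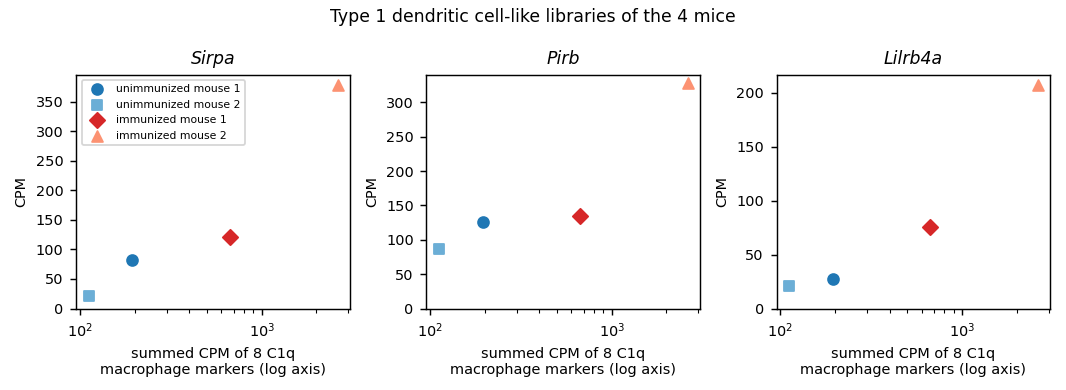
CPM of Sirpa, Pirb and Lilrb4a (y axes, linear) in the type 1 dendritic cell-like library of each mouse against the summed CPM of 8 C1q macrophage markers in the same library (x axes, log scale). The library of immunized mouse 2, at 2620 CPM of these markers, was the highest for all 3 genes.

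Outside type 1 dendritic cell-like cells no gene of the 9 was called by edgeR, but some stood apart in both immunized mice. Cd33 had a lower fitted value in 10 of 11 types and was lower in both immunized than in both unimmunized mice in 7, where 2.59% of all genes were lower without overlap in at least 7 types and 20.8% of gene and type pairs were. How many of all genes had a lower fitted value in as many types was not counted, and the types share mice. In type 2 dendritic cell-like cells it stood at 79.7 and 74.6 CPM in the unimmunized and at 27.2 and 6.52 CPM in the immunized mice (−2.02 ± 0.54, adjusted p = 0.15). In inflammatory macrophage-like cells it stood at 99.7 and 56.6 against 36.1 and 19.3 CPM. Only B cell-like cells had a higher fitted value. In migratory dendritic cell-like cells the mean was higher after immunization (14.5 against 19.5 CPM), although the fitted value was −0.22 ± 0.70. The medullary sinus macrophage-like share of cells, the gate with the most Cd33 after neutrophils, stood at 5.27% and 1.49% without and at 1.14% and 0.0635% after immunization. Its 8 markers summed to 694 and 70.2 against 127 and 9.78 CPM in the type 2 dendritic cell-like libraries, and their part in the result was not tested. Of 16 alternatives, 13 left the type 2 dendritic cell-like value uncalled. It lay between −3.54 and −1.40 over all 16, and the lowest value came without immunized mouse 1, when 1 library stood for the immunized mice and the spread came from the other groups.

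Pirb had a higher fitted value in 11 of 11 types and Lilrb4a in 10, again without a count over all genes and in types that share mice. Each was higher without overlap in 5 types and lower without overlap in none, where 16.4% of gene and type pairs were higher without overlap and 7.58% of all genes were so in at least 5 types. For both, the 5 included type 1 dendritic cell-like cells, and for Lilrb4a also B cell-like cells, where the library of immunized mouse 2 stood apart. In classical monocyte-like cells Pirb stood at 343 and 471 against 509 and 537 CPM, in nonclassical monocyte-like cells at 277 and 369 against 415 and 412 CPM, and in C1q macrophage-like cells at 240 and 243 against 290 and 398 CPM. None of these passed the test. Sirpa was higher without overlap in 2 types and lower in 3, where 16.4% and 20.8% of all gene and type pairs were higher and lower. The 2 higher types were B cell-like and type 1 dendritic cell-like cells, in which the library of immunized mouse 2 stood apart. Among the lower types, nonclassical monocyte-like cells had 636 and 666 against 542 and 532 CPM of Sirpa. Siglecg in B cell-like cells, at 371 and 453 against 194 and 166 CPM, was lower without overlap but not called. Cd47 was higher without overlap in 2 types and lower in 1.

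**Figure D5:**
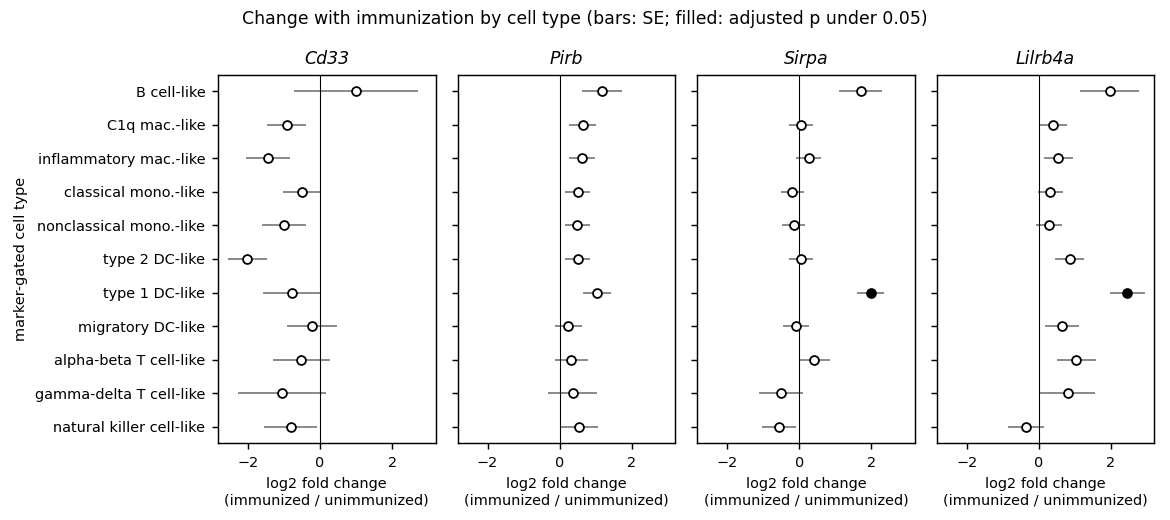
Log2 fold change of immunized against unimmunized mice (x axes) for Cd33, Pirb, Sirpa and Lilrb4a in the 11 marker-gated types (y axis), with bars for the SE and filled points for an adjusted p under 0.05 in edgeR. Filled points are Sirpa and Lilrb4a in type 1 dendritic cell-like cells, and Cd33 lies below 0 in 10 of 11 types and Pirb above 0 in 11.

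Siglech in C1q macrophage-like cells stood at 78.4 and 44.2 CPM in the unimmunized and at 22.9 and 1.48 CPM in the immunized mice. Its log2 fold change was −2.40 ± 0.81 (adjusted p = 0.45), and with the mouse as a block it was −3.80 (adjusted p = 0.019) and called. Of 16 alternatives, 13 left it uncalled, with values from −5.34 to −1.36, and the lowest came without immunized mouse 1, when 1 library stood for the immunized mice and the spread came from the other groups. The 8 medullary sinus macrophage markers in the same libraries summed to 1726 and 519 against 491 and 40 CPM, which moved with it and whose part was not tested. In the same gate, 8 plasmacytoid dendritic cell markers summed to 145 and 243 against 143 and 147 CPM.

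Whether the effect of immunization differed between types was tested directly by the interaction. None of the 9 genes passed (Sirpa adjusted p = 0.23), beside 0.461% of all genes by edgeR. DESeq2 and the fit with the mouse as a block also called none, and 2 of the 9 reached an unadjusted p under 0.05. The change of Sirpa and Lilrb4a in type 1 dendritic cell-like cells is thus not shown to differ from that in other types. Of the other genes of these pathways, St3gal6 was lower after immunization in classical monocyte-like (−1.72 ± 0.43) and inflammatory macrophage-like cells (−3.61 ± 0.65), as was Itgb3 (−2.83 ± 0.71 and −4.74 ± 1.11). Both were higher in T and NK cell-like cells than in the myeloid types (3.99 and 5.17). Alpha-beta T cell-like cells were 12.3% and 12.3% of cells without immunization and 3.48% and 1.67% after it. For gamma-delta T cell-like cells these shares were 12.6% and 5.96% against 0.864% and 0.212%. The part of T cell RNA in these changes was not tested.

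Over all kept cells of a mouse, gated or not, fewer cells of a type and less RNA per cell cannot be told apart. Pirb stood at 148 and 217 CPM in the unimmunized and at 357 and 453 CPM in the immunized mice, and Lilrb4a stood at 95.2 and 117 against 198 and 255 CPM. Sirpa stood at 251 and 375 against 405 and 465 CPM, and Cd33 at 52.5 and 48.5 against 35.2 and 19.2 CPM. The log2 fold changes of Pirb and Lilrb4a were 1.40 ± 0.28 and 1.35 ± 0.22 (both adjusted p = 0.11). edgeR called 0 of 13596 genes, with 3894 at an unadjusted p under 0.05, and DESeq2 called 1557 genes, Pirb and Lilrb4a among them. Inflammatory macrophage-like cells, in which both genes were high, were 1.06% and 1.86% of cells without immunization and 5.33% and 34.2% after it. Classical monocyte-like cells, also high in both, were 6.22% and 9.12% against 26.0% and 16.6%. Both genes were low in T cell-like cells. The alpha-beta gate held 12.3% and 12.3% against 3.48% and 1.67% of cells, and the gamma-delta gate 12.6% and 5.96% against 0.864% and 0.212%. The part of these shares in the change was not tested.

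The genes whose mean levels over the 13 types were most like those of each gene were found by Pearson's r of log2(CPM + 1), as a description over types that share mice and differ in depth. Sirpa, Pirb and Lilrb4a were close to each other (r from 0.87 to 0.93), Siglece was close to Lilrb4a (0.94), and Cd47 was least like Siglech (−0.75). Cd22 was closest to the immunoglobulin gene Ighg2b (0.96), Dennd5b (0.94) and the B cell adaptor Bank1 (0.94), and Siglecg to Mbd4 (0.91), the transcription factor gene Bcl11a (0.91) and H2-Ob (0.89). Pirb was closest to its relative Pira2 (0.97), Stimate (0.97) and the cytokine receptor chain Csf2rb (0.97), and Lilrb4a to Ifitm2 (0.97), Sirpb1b (0.96) and Fgr (0.96). Sirpa was closest to Mefv (0.97), Celf4 (0.97) and Lst1 (0.96), and Siglece to Il1b (0.94), Lilrb4a and the TNF receptor gene Tnfrsf1a (0.93). Siglech was closest to Arhgef10 (0.96), Cd300c (0.94) and Rragc (0.94), Cd33 to Gm38843, Ankrd24 and Msl3 (0.93 each), and Cd47 to Dock8 (0.91), B4galnt1 (0.88) and Setd1b (0.86).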

How the data were processed

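The data were 1 CITE-seq experiment. The authors aligned reads with Cell Ranger 4.0.0 to an mm10 reference, aggregated both captures and deposited UMI counts per gene and barcode, and they deposited counts of hashtag antibodies made with CITE-seq-count. The sources used here do not say whether aggregation equalized reads between captures. Both kinds of counts were used as deposited. The antibody counts, in which none of the 9 proteins was stained, were not used.

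Of 18662 barcodes, 1242 whose sequence (621 in all) occurred in both captures were left out, since hashtags could not be assigned to them. Cells with at most 25% mitochondrial UMIs and a leading hashtag that had 10 or more counts and held at least 80% of the total were kept, which also removed doublets between mice but not those within a mouse. Median UMIs per cell were 5877, 6280, 9674 and 12727.5 in unimmunized mice 1 and 2 and immunized mice 1 and 2. A cell was gated to the type of which it had the most of 8 markers, when it had at least 3 and more than of any other of the 14 types. 3591 cells were ungated, 1211 with under 3 markers and 2380 tied, and 3739 gated cells led by only 1 marker.

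UMIs were summed per mouse and type for mice with at least 10 cells (53998 to 23737581 UMIs per library). These sums were fitted together in edgeR 4.0.16 (R 4.3.3) with TMM scaling, filterByExpr and the quasi-likelihood test, 1 group per type and condition, and p-values were adjusted by Benjamini-Hochberg over all genes with a threshold of 0.05. SE is the log2 fold change divided by the square root of F. An estimate with an SE over 10 on the log2 scale, as arises when a group has no UMI, was taken as unusable. With 2 mice per condition, p-values measure the spread between few animals. Where leaving out a mouse left 1 library in an arm, it was assumed to vary like the other groups. The same was assumed in every fit for medullary sinus macrophage-like and neutrophil-like cells, which had 1 library per condition. Intervals and limits from a count of 0 (3 counts) cover counting error only. The edgeR fit of the libraries was tested on simulated counts, for classical against nonclassical monocytes and for immunization in C1q macrophage-like cells. The DESeq2 fit, the fit with the mouse as a block and the fit over all cells were not tested in this way.

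Since each animal gave several libraries, mouse was also fitted as a block in limma 3.58.1 (voom and duplicateCorrelation, estimated correlation 0.069, with the interaction F computed from the weights of each gene). Other alternatives were DESeq2 1.42.0 and its size factors, no filter on low counts, HTODemux hashtags (Seurat 5.3.0), at most 10% mitochondrial UMIs, at least 4 markers, gated cells without 3 markers of another type, Leiden clusters (scanpy 1.11.5) found without the 9 genes, at least 20 cells per library, each capture alone, leaving out each mouse, and, added after the data were seen, no medullary sinus macrophage-like libraries.

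The 9 genes and the lists (ITIM signaling proteins, ITAM adaptors and kinases, other Siglecs, other ITIM-bearing or paired receptors, sialic acid synthesis and transfer, CD47 partners and maturation) were chosen with earlier results of these data known. The lists are named for their main members, and not every gene in a list has the named feature. Per list and comparison, up to 3 called genes with the largest absolute log2 fold change are named, and per gene the 3 genes most like it by Pearson's r over types, among genes with at least 20 CPM in some type. Siglec1, Itgam, the relatives of Pirb, Lilrb4a and Sirpa and the values without single libraries were picked outside this rule. 1 gene that the rule names is not reported here.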

Additional observations from a re-analysis of the deposited data

How the results depend on the processing

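The number of the 9 genes called was 6 in B cells against all other types, 5 in macrophages against monocytes, 5 in dendritic cells against macrophages, 4 in T and NK cells against myeloid types, 4 in neutrophils against monocytes, 5 in C1q against medullary sinus macrophages, 0 in classical against nonclassical monocytes, and 2 gene and type pairs for immunization within types. With the mouse as a replicate block these were 7, 7, 7, 6, 4, 5, 0 and 3, and 0 for the interaction, and the added calls were those of Siglece, Cd22, Siglech, Siglecg and, in neutrophils, Lilrb4a described above, where that of Sirpa was lost (−1.11). Leaving out each mouse in turn gave 4 to 6, 2 to 6, 3 to 5, 3 to 4, 1 to 5, 0 to 7, 0 to 0 and 0 to 13, with 0 to 2 for the interaction and 0 to 7 over all cells.

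Other settings moved these counts as follows. With no filter on low counts there were 9 calls for immunization within types, 2 for the interaction and 5 over all cells, and DESeq2 called 2 over all cells. Over all genes, the interaction had 630 calls without the filter, and DESeq2 called 1557 over all cells. HTODemux hashtags gave 2 in neutrophils and 1 for immunization within types. Without cells that had 3 markers of another type, there were 3 for dendritic cells, 3 for C1q macrophages and 0 for immunization within types. Leiden clusters, which gave 51.8% of gated cells the same name, gave 2 for macrophages against monocytes, as did leaving out medullary sinus macrophage-like libraries (2). At least 20 cells per library gave 3 for dendritic cells. Capture 1 alone gave 3 for dendritic cells and 1 for neutrophils, and capture 2 alone gave 2 for dendritic cells and 1 for immunization within types. Unthinned shares were highest in the type of the highest CPM for 5 genes, against 9 thinned.

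Direction changed 6 times. In Leiden clusters, Sirpa (0.33), Pirb (0.032) and Lilrb4a (0.18) turned in macrophages against monocytes, and Sirpa turned in type 1 dendritic cells after immunization (−0.37). Without cells that had 3 markers of another type, Lilrb4a turned in dendritic cells against macrophages (0.44) and Pirb in type 1 dendritic cells after immunization (−0.33). The cause was not tested. Of the other values for single genes, 467 kept their direction and side of the threshold, 66 lost and 8 gained a call, and 3 moved.

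Counts over all genes ranged, over the alternatives, from 1401 to 3276 (2828 as reported) for B cells, 653 to 3587 (2384) for macrophages against monocytes, 731 to 3433 (3013) for dendritic cells, 2541 to 6568 (4943) for T and NK cells, 498 to 3164 (1306) for neutrophils, 200 to 1303 (1219) for C1q macrophages and 22 to 1180 (199) for monocytes. For immunization they ranged from 0 to 849 (160) in type 1 dendritic cells, 0 to 630 (54) for the interaction and 0 to 4172 (0) over all cells. The neutrophil comparison could not be run with at least 20 cells per library, with cells free of other markers or with capture 2 alone, the C1q comparison could not be run in Leiden clusters, and no block could be fitted over all cells. 2 mice per condition, the 206 medullary sinus macrophage-like and 37 neutrophil-like cells, and a mouse with 537 cells limit what these data can show.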
